A study of Mus musculus with 16 samples.

Results

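The genes described here are those of the NF-kB transcription factors and of their feedback regulators: the subunit genes *Relb*, *Nfkb2*, *Rel*, *Rela* and *Nfkb1*, the inhibitor genes *Nfkbia* and *Nfkbie*, the signaling adaptor gene *Traf1*, the nuclear cofactor gene *Bcl3* and the deubiquitinase gene *Tnfaip3*. They were chosen by name, with earlier results of these data known, and a gene was measured where an array probe set carried its symbol alone. This held for 9 of the 10 genes, among 19938 genes measured in the series, with 1 probe set each. *Nfkb1* was not analysed here. *Traf1* and *Relb* were higher in IkL/L than in WT CDPs with and without γ-secretase inhibitor (GSI), and *Nfkb2*, *Nfkbie*, *Rel* and *Tnfaip3* were also higher once both treatments were averaged. Fitted to the compared CDP arrays alone, only *Traf1* and *Relb* kept a call, and only in the average. *Rela*, *Bcl3* and *Nfkbia* did not pass the test, nor did any of the 9 genes in MDPs or between GSI and vehicle.

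The study asked how Ikaros, a zinc finger transcription factor, and γ-secretase act on mouse dendritic cell (DC) progenitors. Its 16 arrays fall into 8 groups of 2: IkL/L and WT common dendritic progenitors (CDPs), and IkL/L and WT monocyte and dendritic progenitors (MDPs), each cultured for 24 h with GSI (Compound E at 5 µM) or with the vehicle DMSO. IkL/L cells carry a hypomorphic Ikaros allele, so that some Ikaros remains, and WT cells lack this allele. All groups were CD45.2+ cells sorted from bone marrow, cultured in medium with Flt3L together with unfractionated CD45.1+ WT bone marrow cells, and sorted again as CD45.2+ cells before RNA was extracted. MDP and CDP thus name the cells put into culture, and the arrays do not tell the stage of the cells recovered. CDPs form DCs, and MDPs form monocytes as well. Cells came from 2 mice per condition, and no source used here ties a replicate number to a mouse.

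NF-kB proteins bind DNA as dimers. In the classical pathway the IKK kinase complex marks IκB inhibitors for degradation, which frees dimers of RelA or c-Rel with p50, the product of *Nfkb1*. In the alternative pathway the kinase NIK drives the processing of p100, the product of *Nfkb2*, to p52, and dimers of RelB and p52 enter the nucleus. RelB is known to be abundant in mature DCs, and genes such as *Nfkbia* and *Tnfaip3* are induced by NF-kB and restrain it in turn.

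Several of these genes are themselves known NF-kB targets, so the κB sites near their transcription starts are shown first. RefSeq promoter windows (GRCm38.p6, 250 bases before to 50 after a start) were at hand for 8 of the 10 genes, with 11 windows in all, since *Nfkb2* has 3 and *Tnfaip3* 2. The κB consensus, a motif of 10 letters, was searched on both strands. It was found in 8 of these 11 windows and in 6 of the 8 genes, while 8.46% of all 32841 windows of this length held it. The *Nfkb2* windows starting at 46305445 and 46305680 overlap and share the match GGGACTTTCC, which is counted in both. The 250 bases before the start are printed for 5 genes, 5′ to 3′ on the gene's own strand, with every base of a κB match in capitals: *Nfkb2* (chr19:46304487-46304736, plus strand, the first of its 3 starts), *Rel* (chr11:23770970-23771219, minus strand), *Nfkbia* (chr12:55492648-55492897, minus strand), *Nfkbie* (chr17:45555450-45555699, plus strand) and *Tnfaip3* (chr10:19015411-19015660, minus strand, the upstream of its 2 starts).
Nfkb2: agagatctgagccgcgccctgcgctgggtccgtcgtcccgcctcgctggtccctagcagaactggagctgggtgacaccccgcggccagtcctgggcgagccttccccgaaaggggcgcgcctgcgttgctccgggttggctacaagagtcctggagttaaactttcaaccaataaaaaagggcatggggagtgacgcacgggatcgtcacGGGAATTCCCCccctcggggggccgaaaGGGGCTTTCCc
Rel: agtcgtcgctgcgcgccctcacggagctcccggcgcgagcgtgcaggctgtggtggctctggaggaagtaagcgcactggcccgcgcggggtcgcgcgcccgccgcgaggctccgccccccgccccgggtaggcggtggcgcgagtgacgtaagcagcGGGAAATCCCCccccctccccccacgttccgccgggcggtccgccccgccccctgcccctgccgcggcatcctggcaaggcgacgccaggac
Nfkbia: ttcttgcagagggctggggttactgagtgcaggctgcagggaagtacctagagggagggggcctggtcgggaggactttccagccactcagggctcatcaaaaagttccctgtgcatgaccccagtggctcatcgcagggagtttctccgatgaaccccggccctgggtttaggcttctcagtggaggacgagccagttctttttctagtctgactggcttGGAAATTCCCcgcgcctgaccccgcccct
Nfkbie: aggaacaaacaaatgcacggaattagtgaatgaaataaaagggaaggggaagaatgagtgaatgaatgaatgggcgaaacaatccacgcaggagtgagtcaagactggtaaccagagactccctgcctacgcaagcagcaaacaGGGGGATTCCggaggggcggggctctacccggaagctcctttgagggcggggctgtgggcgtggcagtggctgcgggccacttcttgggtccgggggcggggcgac
Tnfaip3: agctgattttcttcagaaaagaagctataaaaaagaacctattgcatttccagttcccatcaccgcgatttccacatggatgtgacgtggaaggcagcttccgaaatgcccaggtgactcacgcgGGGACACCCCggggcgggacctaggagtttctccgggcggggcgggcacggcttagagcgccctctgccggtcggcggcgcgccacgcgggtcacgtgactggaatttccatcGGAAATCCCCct

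In *Rel* and *Nfkb2* a pair of overlapping matches forms 1 longer run of capitals, GGGAAATCCCC and GGGAATTCCCC. The single match of *Bcl3*, GGGAAGTCCC, lay just after its start. The windows of *Rela* (chr19:5637291-5637590) and *Traf1* (chr2:34961723-34962022) held none, and neither did the other *Tnfaip3* window (chr10:19011914-19012213). The letters TGGGAA, the core of the site that Ikaros is known to bind, were found on either strand in 2 of the 11 windows (*Rel* and *Tnfaip3*) and in 25.6% of all windows, and in neither gene did they overlap a κB match. A match describes these letters and does not show that a factor binds there, nor does a window without one show that none binds at the gene. The paper reports Ikaros bound at *Nfkb2*, *Nfkbie*, *Rel* and *Relb* in pre-B cells and immature thymocytes. For *Relb* no window was at hand.

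The values are log2 signals summarized by RMA, which the authors deposited. They ran from 2.55 to 13.46, array medians lay between 4.52 and 4.65, and the 2 arrays of a group correlated across genes at 0.983 to 0.996. Genotypes and treatments were compared with limma in 1 fit of all 16 arrays, with p values adjusted by Benjamini and Hochberg's method over all 19938 genes and a threshold of 0.05. An exact permutation test of 2 arrays against 2 has no p lower than 0.333, and the p values given here are limma's, which rest on the spread pooled over the groups. The fit counts every array as a separate sample. If the GSI and vehicle arrays of a genotype came from the same mice, p values of genotype differences averaged over the treatments would be too small. *Ikzf1*, the gene of Ikaros, had log2 signals of 8.36 to 9.20 over all arrays. It was lower by a log2 difference of -0.30 in IkL/L CDPs (adjusted p = 0.134) and of -0.50 in IkL/L MDPs (adjusted p = 0.0545), averaged over the treatments, and the labels do not say which part of the gene the probe set reads.

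*Relb* encodes RelB, which pairs with p52 in the alternative pathway. Its log2 signals were 6.77 and 7.10 with GSI and 6.95 and 7.34 with vehicle in IkL/L CDPs, against 5.47 and 5.41 with GSI and 5.93 and 5.19 with vehicle in WT CDPs. All 4 IkL/L arrays lay above all 4 WT arrays. The difference was 1.54 ± 0.15 on the log2 scale (SE), or 2.91-fold, averaged over the treatments (adjusted p = 2.288e-04). It passed the test with GSI (1.497, adjusted p = 0.00526) and with vehicle (1.59, adjusted p = 0.00467) taken alone. The call was lost with GSI without IkL/L CDP GSI replicate 2 (adjusted p = 0.0506) and with vehicle without IkL/L CDP vehicle replicate 2 (adjusted p = 0.0540), and the averaged call was kept without any 1 of the 16 arrays.

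*Nfkb2* encodes p100, which holds RelB in the cytoplasm until it is cut to p52. Its log2 signals were 7.73 and 8.11 with GSI and 7.82 and 8.04 with vehicle in IkL/L CDPs, against 6.74 and 7.03 with GSI and 7.39 and 6.66 with vehicle in WT CDPs. The groups did not overlap. The averaged difference was 0.97 ± 0.18 (SE, 1.96-fold, adjusted p = 0.0109). With 1 treatment alone it missed the threshold, at 1.04 with GSI (adjusted p = 0.0776) and 0.91 with vehicle (adjusted p = 0.171). Left out in turn, WT CDP vehicle replicates 1 and 2 each brought the GSI difference past the threshold (adjusted p = 0.0372), and without replicate 1 the vehicle difference passed as well (1.27, adjusted p = 0.0494).

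Of the classical subunits, *Rel* encodes c-Rel, which is known for its part in cytokine expression by DCs. It had log2 signals of 9.67 and 9.99 with GSI and 9.52 and 9.86 with vehicle in IkL/L CDPs, against 9.31 and 8.90 with GSI and 9.33 and 8.68 with vehicle in WT CDPs. The lowest IkL/L array stood just above the highest WT array. The averaged difference was 0.71 ± 0.16 (SE, 1.63-fold, adjusted p = 0.0295). This call was lost without 6 of the 16 arrays left out in turn: WT CDP vehicle replicate 2 (adjusted p = 0.0925), WT CDP GSI replicate 2 (0.0904), IkL/L CDP vehicle replicate 2 (0.112), IkL/L CDP GSI replicate 2 (0.115) and either array of IkL/L MDPs with GSI (0.0508 each).

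*Rela*, the gene of the main transactivating subunit of the classical pathway, had log2 signals of 8.69 and 8.83 with GSI and 8.72 and 8.82 with vehicle in IkL/L CDPs, against 8.55 and 8.70 with GSI and 8.69 and 8.49 with vehicle in WT CDPs. The groups overlapped. The averaged difference was 0.16 ± 0.09 (SE, 95% interval -0.04 to 0.36, adjusted p = 0.493).

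**Figure D1:**
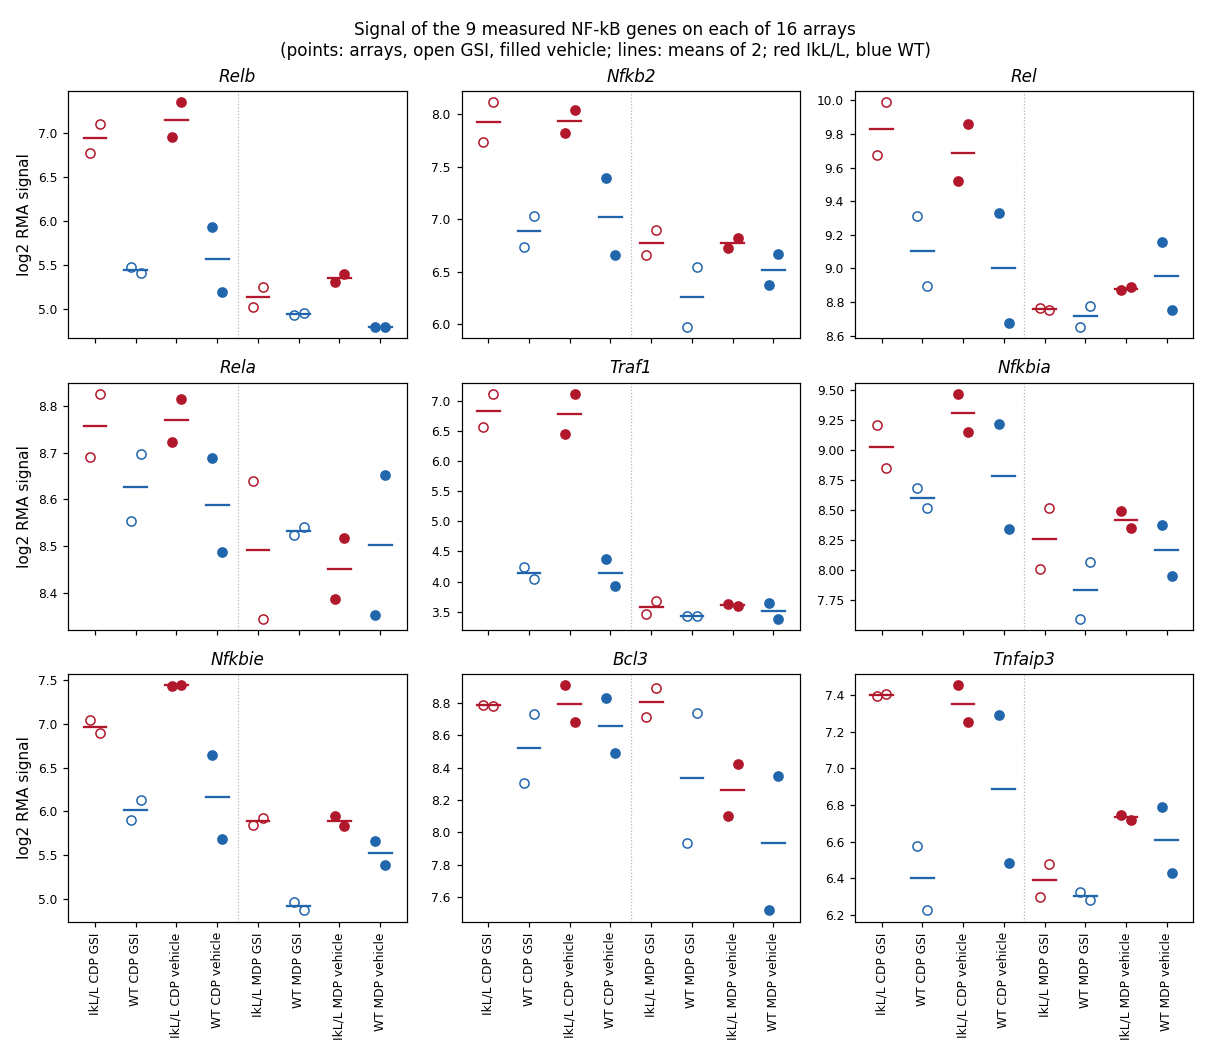
Log2 RMA signal (vertical axes, a scale of its own for each gene) of the 9 measured NF-kB genes in the 8 groups (horizontal axis). Each point is 1 array (open GSI, filled vehicle), lines are means of 2 arrays, red is IkL/L and blue WT; *Traf1* ran from 6.45 to 7.11 in IkL/L CDPs and from 3.92 to 4.37 in WT CDPs, while *Rela* overlapped between the genotypes.

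*Traf1* had the largest difference of the 9 genes. It encodes an adaptor of TNF family receptors and is itself a known NF-kB target. Its log2 signals were 6.56 and 7.10 with GSI and 6.45 and 7.11 with vehicle in IkL/L CDPs, against 4.24 and 4.05 with GSI and 4.37 and 3.92 with vehicle in WT CDPs. The lowest IkL/L array was thus over 2 log2 units above the highest WT array. The averaged difference was 2.66 ± 0.17 (SE, 6.32-fold, adjusted p = 1.32e-05), and it was 2.69 with GSI (adjusted p = 2.633e-04) and 2.64 with vehicle (adjusted p = 4.688e-04). Each of these 3 calls was kept without any 1 of the 16 arrays.

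Of the 2 IκB genes 1 passed the test in the average, and the 2 were not compared with each other. *Nfkbie*, which encodes IκBε, had log2 signals of 7.04 and 6.89 with GSI and 7.44 in both vehicle arrays of IkL/L CDPs, against 5.90 and 6.13 with GSI and 6.65 and 5.68 with vehicle in WT CDPs. No WT array reached an IkL/L array, and the averaged difference was 1.11 ± 0.17 (SE, 2.16-fold, adjusted p = 0.00363). With vehicle alone it was 1.27 (adjusted p = 0.0333), and with GSI alone 0.95 (adjusted p = 0.0823). The vehicle call was lost without 9 of the 16 arrays left out in turn: either IkL/L CDP vehicle replicate 1 or 2 (adjusted p = 0.162 and 0.171), WT CDP vehicle replicate 2 (0.0550), either array of WT MDPs with vehicle (0.0515), of IkL/L MDPs with vehicle (0.0590) and of IkL/L MDPs with GSI (0.0631). Without WT CDP vehicle replicate 1 or 2 the GSI difference passed (adjusted p = 0.00267).

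*Nfkbia* encodes IκBα, an inhibitor that NF-kB rapidly induces. Its log2 signals were 9.21 and 8.85 with GSI and 9.47 and 9.14 with vehicle in IkL/L CDPs, against 8.68 and 8.52 with GSI and 9.22 and 8.34 with vehicle in WT CDPs. WT CDP vehicle replicate 1 lay inside the IkL/L range. The averaged difference was 0.48 ± 0.21 (SE, 95% interval 0.02 to 0.94, unadjusted p = 0.0428, adjusted p = 0.298) and did not pass the test.

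*Tnfaip3* encodes A20, an enzyme that edits ubiquitin chains and dampens signaling to IKK. It had log2 signals of 7.39 and 7.41 with GSI and 7.45 and 7.25 with vehicle in IkL/L CDPs, against 6.58 and 6.22 with GSI and 7.29 and 6.48 with vehicle in WT CDPs. The genotypes overlapped at 1 point, where WT CDP vehicle replicate 1 lay above IkL/L CDP vehicle replicate 2. The averaged difference was 0.73 ± 0.16 (SE, 1.66-fold, adjusted p = 0.0244). It was lost without IkL/L CDP vehicle replicate 1 (adjusted p = 0.0948) or 2 (0.0525), IkL/L CDP GSI replicate 1 (0.0737) or 2 (0.0769) and WT CDP GSI replicate 2 (0.0762). With GSI alone the difference was 1.00 (adjusted p = 0.0513), and it passed without either WT CDP vehicle array (0.00727).

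*Bcl3* encodes a nuclear IκB-like protein that binds p50 and p52 dimers. Its log2 signals were 8.79 and 8.78 with GSI and 8.91 and 8.68 with vehicle in IkL/L CDPs, against 8.31 and 8.73 with GSI and 8.83 and 8.49 with vehicle in WT CDPs. The groups overlapped, and the averaged difference was 0.20 ± 0.21 (SE, 95% interval -0.27 to 0.68, adjusted p = 0.782).

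In CDPs averaged over the treatments, 6 of the 9 genes were thus called higher and 0 lower, where 3.21% of all genes were called higher and 1.92% lower. Since the genes were chosen with earlier results of these data known, these shares describe the list and do not test it. The median difference of the 9 genes was 0.73, against -0.02 over all genes. The arrays of 5 of the 9 genes did not overlap, all with IkL/L higher, as in 5.35% of all genes. With GSI alone 2 of the 9 genes were called (1.35% of all genes called higher), and with vehicle alone 3 were (0.933%). Fitted to the compared arrays alone, which leaves few degrees of freedom, *Traf1* (adjusted p = 0.00495) and *Relb* (0.0179) kept the averaged call, *Nfkbie* (0.0526), *Nfkb2* (0.0569), *Tnfaip3* (0.123) and *Rel* (0.134) lost it, and 0 of the 9 genes were called within 1 treatment. By pathway, both alternative subunits were called higher, 1 of the 2 measured classical subunits was, and 3 of the 5 regulators were.

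The same arrays allow the change of each subunit to be set against that of *Rela*. Since probe sets differ in brightness, only differences between groups in this ratio are read. The log2 ratio of *Relb* to *Rela* was -1.92 and -1.73 with GSI and -1.78 and -1.47 with vehicle in IkL/L CDPs, against -3.09 and -3.29 with GSI and -2.76 and -3.30 with vehicle in WT CDPs. Every IkL/L array lay above every WT array. The ratio was higher in IkL/L CDPs by 1.38 for *Relb*, 0.81 for *Nfkb2* and 0.55 for *Rel*, and in IkL/L MDPs by 0.42, 0.43 and 0.03 for the same genes. These ratios are given as a description and were not tested.

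**Figure D2:**
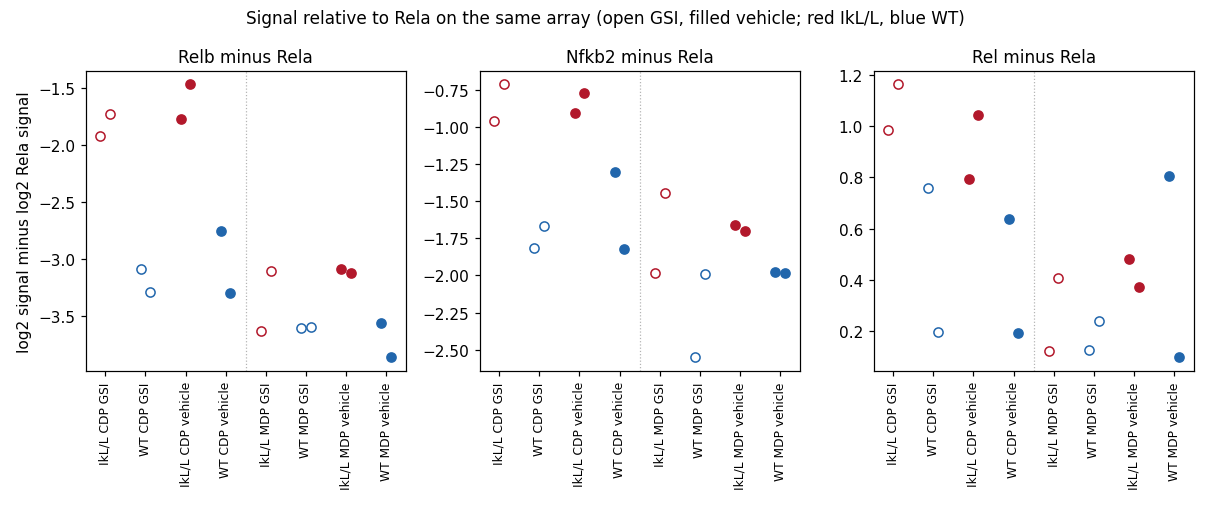
Log2 signal of *Relb*, *Nfkb2* and *Rel* minus the log2 signal of *Rela* on the same array (vertical axes), in the 8 groups (horizontal axis). Points are arrays (open GSI, filled vehicle, red IkL/L, blue WT); in CDPs the *Relb* ratio was -1.92 to -1.47 in IkL/L arrays and -3.30 to -2.76 in WT arrays.

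In MDPs none of the 9 genes passed the test. This held with GSI (0.115% of all genes called), with vehicle (0.105%) and for their average (0.597%). By limma 1 of the 9 genes had an unadjusted p under 0.05 with GSI (6.81% of all genes), 1 with vehicle (4.41%) and 2 in the average (8.8%). Of the pair in the average, one was *Nfkbie*, with log2 signals of 5.85 and 5.93 with GSI and 5.94 and 5.84 with vehicle in IkL/L MDPs, against 4.97 and 4.87 with GSI and 5.66 and 5.39 with vehicle in WT MDPs. Its arrays did not overlap, and the averaged difference was 0.67 ± 0.17 (limma, SE, 95% interval 0.29 to 1.04, unadjusted p = 0.00253, adjusted p = 0.174). It passed with the MDP arrays alone (adjusted p = 0.0257), and without WT CDP vehicle replicate 1 or 2 (adjusted p = 0.00720), as did the difference with GSI alone (0.0147), though these arrays enter only through the pooled spread.

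The other was *Relb*, with log2 signals of 5.01 and 5.24 with GSI and 5.30 and 5.39 with vehicle in IkL/L MDPs, against 4.92 and 4.95 with GSI and 4.79 in both vehicle arrays of WT MDPs. These arrays did not overlap either, and the averaged difference was 0.37 ± 0.15 (SE, 95% interval 0.04 to 0.71, adjusted p = 0.489). The arrays of 2 of the 9 genes did not overlap in this average, as in 3.77% of all genes with IkL/L higher. *Traf1* ran from 3.46 to 3.68 in IkL/L MDPs and from 3.38 to 3.65 in WT MDPs, and its averaged difference was 0.12 (95% interval -0.25 to 0.49). Its group means in MDPs were low, above those of 10.9% (WT with GSI) to 19.5% (IkL/L with vehicle) of all genes. At such signals a genotype difference may go unseen. The other 6 genes had averaged differences from -0.05 for *Rela* to 0.40 for *Bcl3*.

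Whether the genotype effect depended on the stage was tested as an interaction. Averaged over the treatments it passed for 2 of the 9 genes, where 0.562% of all genes were called. For *Traf1* the genotype effect was larger in CDPs by 2.54 ± 0.24 (SE, adjusted p = 9.204e-04), a call kept without any 1 of the 16 arrays. For *Relb* it was larger by 1.17 ± 0.21 (SE, adjusted p = 0.0459). That call was kept only without WT CDP vehicle replicate 1 or 2 or IkL/L CDP vehicle replicate 1, and the adjusted p reached 0.148 without IkL/L MDP GSI replicate 1. It was also lost when arrays were centred on a common median (adjusted p = 0.0618).

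With vehicle alone, *Traf1* was the 1 gene of the 9 called in the interaction (2.54, adjusted p = 0.0233, 0.105% of all genes called). Its call was lost without 8 of the 16 arrays: WT MDP vehicle replicate 1 (adjusted p = 0.149) or 2 (0.0804), WT CDP vehicle replicate 2 (0.102), IkL/L MDP vehicle replicate 1 (0.138) or 2 (0.114), either array of IkL/L MDPs with GSI (0.0526) and IkL/L CDP vehicle replicate 2 (0.0672). It was also lost with the arrays of the compared groups alone (0.189). The interaction of *Nfkbie* by limma was 0.91 with vehicle (adjusted p = 0.9999) and 0.45 in the average (adjusted p = 0.8955). That of *Tnfaip3* was 0.63 in the average (adjusted p = 0.540). Without WT CDP vehicle replicate 1, which leaves that group a single array, these differences were 1.39, 0.69 and 0.83. The interaction of *Rel* was 0.72 (adjusted p = 0.391) and that of *Nfkb2* 0.59 (adjusted p = 0.744).

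**Figure D3:**
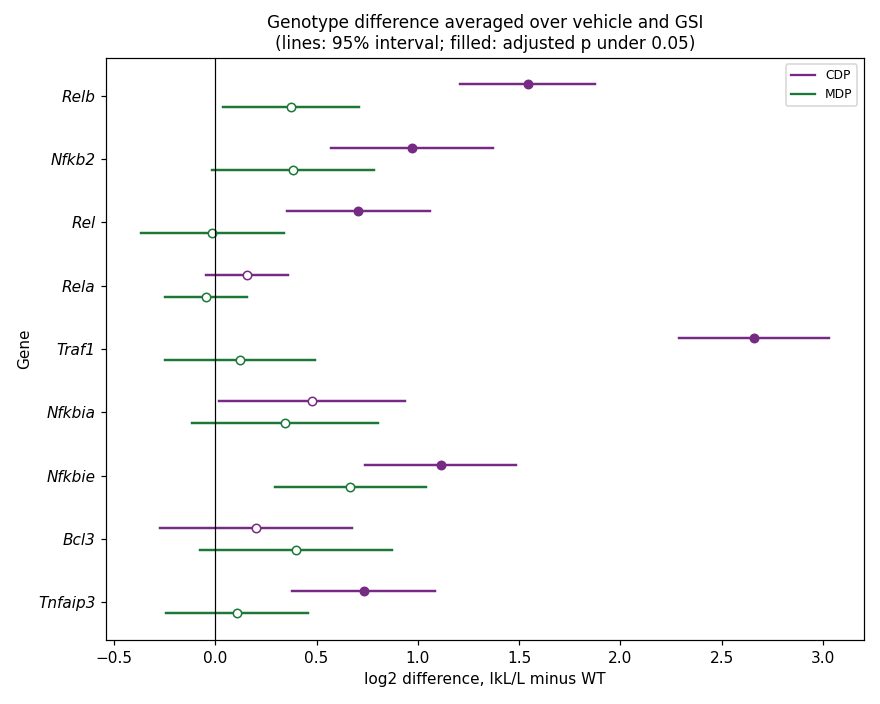
Log2 difference between IkL/L and WT (horizontal axis) for each gene (vertical axis), averaged over GSI and vehicle, in CDPs (violet) and MDPs (green). Points are estimates, filled where the adjusted p was under 0.05, and lines are 95% intervals; 6 of the 9 CDP points are filled and no MDP point is.

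Between the stages, with vehicle alone, IkL/L CDPs were called higher than IkL/L MDPs for 3 of the 9 genes, where 1.28% of all genes were called higher. *Traf1* was at 6.45 and 7.11 in CDPs and 3.63 and 3.60 in MDPs (difference 3.16 ± 0.24, SE, adjusted p = 1.94e-04). *Relb* was at 6.95 and 7.34 in CDPs and 5.30 and 5.39 in MDPs (1.80 ± 0.21, SE, adjusted p = 0.00221), and both these calls were kept without any 1 array. *Nfkbie* was at 7.44 in both CDP arrays and 5.94 and 5.84 in MDPs (1.55 ± 0.24, SE, adjusted p = 0.00914). Its call was lost without IkL/L MDP vehicle replicate 1 (adjusted p = 0.0714) or 2 (0.0715) and IkL/L CDP vehicle replicate 1 (0.0544) or 2 (0.0805).

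*Nfkb2* was at 7.82 and 8.04 in IkL/L CDPs and 6.73 and 6.82 in IkL/L MDPs, and missed the threshold (1.16, adjusted p = 0.0544). It passed without WT CDP vehicle replicate 1 or 2 (adjusted p = 0.0235) and without WT MDP GSI replicate 1 or 2 (0.0422). In vehicle-treated IkL/L cells the CDP arrays of all 9 genes lay above the MDP arrays, as in 17.4% of all genes. In WT cells 0 of the 9 genes were called between CDPs and MDPs with vehicle by limma (0.0953% of all genes called, 4 of the 9 at an unadjusted p under 0.05, as were 5.38% of all genes). All 9 WT differences were above 0, from 0.05 for *Rel* to 0.77 for *Relb* (adjusted p = 0.466), and 4 of the 9 genes had arrays that did not overlap, as in 15% of all genes with CDPs higher. For *Nfkbie* the WT difference was 0.64 (limma, adjusted p = 0.753). Without WT CDP vehicle replicate 2, which leaves that group a single array, the WT difference was 1.14 for *Relb* and 1.12 for *Nfkbie*.

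GSI blocks γ-secretase, the protease that releases the active part of Notch receptors. Under GSI none of the 9 genes passed the test in IkL/L CDPs (0.00502% of all genes called), WT CDPs (0.01%), IkL/L MDPs (0%) or WT MDPs (0%), or in the average of the 4 populations (0.306%). Over the 36 pairs of gene and population, the differences between GSI and vehicle ran from -0.61 to 0.54, and the 95% intervals reached from -1.13 to 1.21. The arrays overlapped in 28 of the 36 pairs. They lay apart with GSI higher in 2 pairs, as in 18% of all such pairs of gene and population, and with GSI lower in 6, as in 13.8%, and limma counted 1 pair of the 36 at an unadjusted p under 0.05, as in 4.25% of all such pairs.

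That pair was *Nfkbie* in WT MDPs, at 4.97 and 4.87 with GSI and 5.66 and 5.39 with vehicle (limma, -0.61, unadjusted p = 0.0282, adjusted p = 0.701). *Nfkbie* was also lower with GSI in IkL/L CDPs, without passing the test, at 7.04 and 6.89 against 7.44 in both vehicle arrays (-0.47, 95% interval -0.997 to 0.06). In IkL/L MDPs its groups overlapped (difference -0.0044). Averaged over the 4 populations its difference was -0.31 ± 0.12 (SE, adjusted p = 0.365), and it passed without WT CDP vehicle replicate 2 (-0.43, adjusted p = 0.0296).

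For *Relb* the difference between GSI and vehicle was -0.21 in IkL/L CDPs (95% interval -0.68 to 0.26), and for *Traf1* it was 0.05 (95% interval -0.48 to 0.57). The GSI effects in IkL/L and WT CDPs were also compared directly. None of the 9 genes and 0 of all genes passed that test by limma, and the difference was -0.09 for *Relb* (95% interval -0.76 to 0.58) and 0.54 for *Tnfaip3* (95% interval -0.17 to 1.24).

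**Figure D4:**
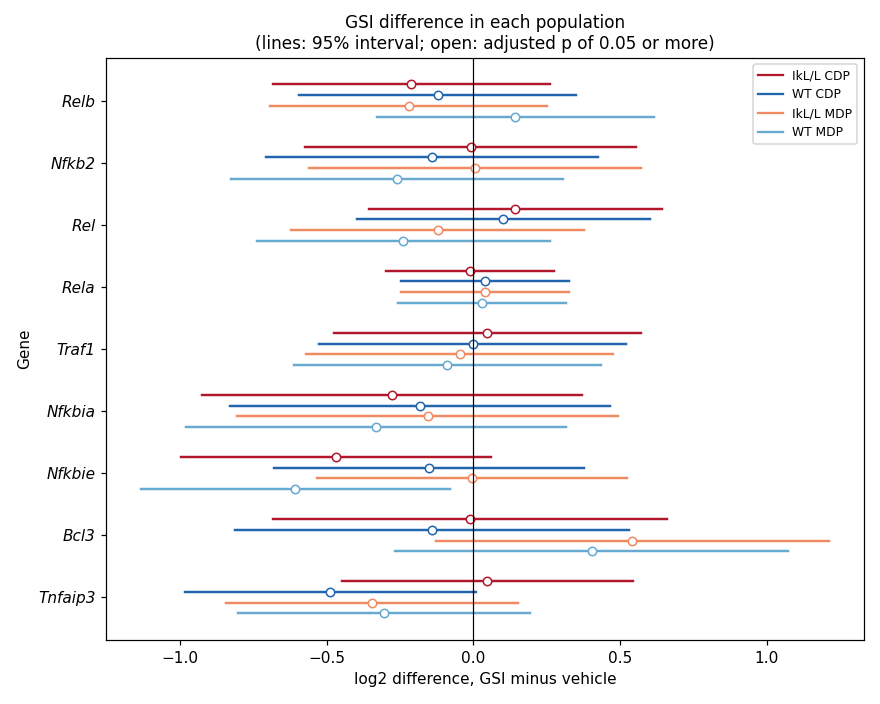
Log2 difference between GSI and vehicle (horizontal axis) for each gene (vertical axis) in IkL/L CDPs, WT CDPs, IkL/L MDPs and WT MDPs (4 colours). Points are estimates and lines 95% intervals; all 36 points are open because no adjusted p was under 0.05, and the estimates ran from -0.61 to 0.54.

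Other genes of the pathway were taken from 5 lists with 79 of 86 listed genes measured. The lists too were chosen with earlier results of these data known, so their counts are a description and not a test. In CDPs, averaged over the treatments, 21 of the 79 were called higher in IkL/L cells and 0 lower (3.21% of all genes higher, 1.92% lower). With GSI alone 16 were called higher (1.35% of all genes), or 10 without WT CDP GSI replicate 1, and with vehicle alone 11 (0.933%), or 4 without either WT CDP vehicle replicate 2 or IkL/L CDP vehicle replicate 2. None were called within 1 treatment from the compared arrays alone. In MDPs 1 of the 79 was called higher in the average (0.537% of all genes called higher), namely *Cxcl16*, which encodes a chemokine. That number ran from 0 to 3 when single arrays were left out. The numbers differed by list, as described next for CDPs.

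Of 10 measured kinases of the IKK complex and upstream of it, 1 was called higher, and the list's median difference was -0.06. That gene was *Map3k14*, which encodes NIK. Its log2 signals were 6.34 and 6.67 with GSI and 5.92 and 6.32 with vehicle in IkL/L CDPs, against 5.40 and 5.28 with GSI and 5.56 and 5.24 with vehicle in WT CDPs (0.95 ± 0.12, SE, adjusted p = 0.00154). The groups did not overlap. In MDPs its averaged difference was below 0.001 (95% interval -0.27 to 0.27). *Tab3*, which encodes a partner of the kinase TAK1, was at -0.32 in CDPs (adjusted p = 0.0554).

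Of 14 measured TRAF and ubiquitin ligase adaptors, 2 were called higher (list median 0.06). *Birc2* encodes cIAP1, a ligase that marks NIK for degradation. It had log2 signals of 8.45 and 8.79 with GSI and 8.32 and 8.80 with vehicle in IkL/L CDPs, against 6.66 and 6.84 with GSI and 7.16 and 7.26 with vehicle in WT CDPs (1.61 ± 0.14, SE, adjusted p = 9.616e-05). Its genotype effect was larger in CDPs than in MDPs (interaction 1.34, adjusted p = 0.0125). The other was *Rnf31*, which encodes the ligase HOIP (0.30, adjusted p = 0.0352).

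Of 12 other IκB proteins and partners of A20, 0 were called by limma, and the list median was 0.17. *Nfkbib*, which encodes IκBβ, had a difference of 0.30 (unadjusted p = 0.0165, adjusted p = 0.169), and *Tnip1*, which encodes an A20-binding protein, 0.57 (unadjusted p = 0.00771, adjusted p = 0.105). *Tnip1* passed without 2 of the 16 arrays left out in turn, with an adjusted p down to 0.0296.

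Of 17 TNF family receptors and ligands, 5 were called higher (list median 0.43): *Tnfrsf9* (1.68), *Cd40* (1.39), *Tnfrsf4* (1.18), *Tnfrsf11a* (0.59) and *Tnfsf4* (0.48). *Tnfrsf4*, which encodes OX40, was at 6.28 and 6.56 with GSI and 5.53 and 6.16 with vehicle in IkL/L CDPs, against 5.06 and 5.01 with GSI and 4.83 and 4.92 with vehicle in WT CDPs. *Cd40* and *Tnfrsf11a* encode receptors known to signal through NIK.

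Of 26 measured genes known as NF-kB targets, 13 were called higher (list median 0.72). The largest differences were those of *Ccr7*, a chemokine receptor of migrating DCs (4.26), *Ccl22* (4.08) and *Ccl5* (3.55), which encode chemokines, and *Cd83*, a surface marker of mature DCs (2.81). *Ccr7* was at 10.40 and 11.24 with GSI and 10.23 and 10.93 with vehicle in IkL/L CDPs, against 5.53 and 7.39 with GSI and 6.08 and 6.76 with vehicle in WT CDPs. Its genotype effect was larger in CDPs than in MDPs (interaction 3.77, adjusted p = 0.0113), as was that of *Ccl22* (2.98, adjusted p = 0.00149), *Ccl5* (2.94, adjusted p = 0.00657) and *Cd83* (2.62, adjusted p = 0.00490).

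**Figure D5:**
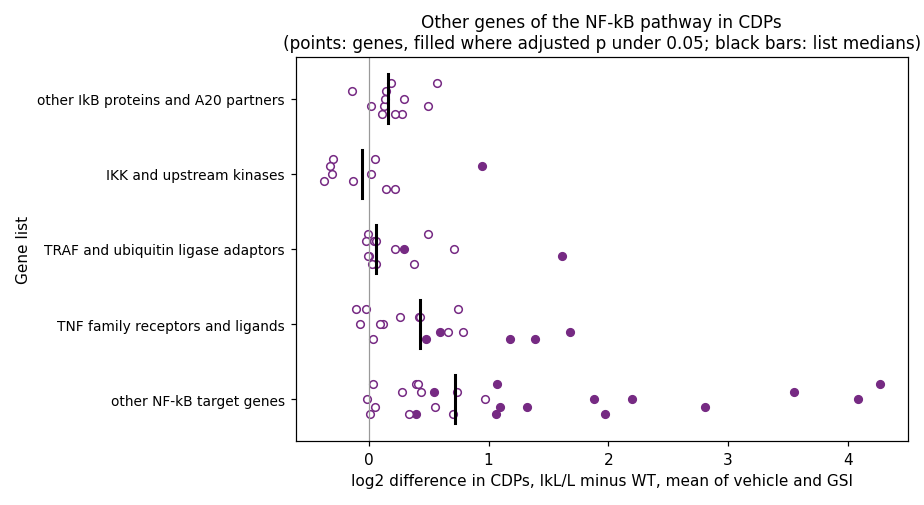
Log2 difference in CDPs between IkL/L and WT, averaged over GSI and vehicle (horizontal axis), for every measured gene of 5 pathway lists (vertical axis). Points are genes, filled where the adjusted p was under 0.05, and black bars are list medians; the filled points number 0 of 12, 1 of 10, 2 of 14, 5 of 17 and 13 of 26 from top to bottom.

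Markers of other cells moved with the genotype in the same arrays. Averaged over the treatments, 3.21% of all genes were called higher in CDPs and 0.537% in MDPs. The mean log2 signal of the 11 measured of 13 mature DC markers was 7.99 to 8.43 with GSI and 7.76 to 8.18 with vehicle in IkL/L CDPs, against 5.21 to 5.60 with GSI and 5.36 to 5.60 with vehicle in WT CDPs, and 9 of the 11 were called higher. In MDPs the same mean was 5.05 to 5.48 in IkL/L cells and 4.67 to 4.83 in WT cells, with 0 of 11 called. The pathway lists share 7 genes with the mature DC markers, and of the 21 pathway genes called higher in CDPs 5 are among them and 16 are not. This split depends on which genes were listed as markers, and whether those 16 follow DC maturation was not tested.

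The mean of 10 neutrophil markers was 9.53 to 10.74 with GSI and 10.05 to 10.90 with vehicle in IkL/L CDPs, against 7.60 to 8.29 with GSI and 7.87 to 8.06 with vehicle in WT CDPs, with 9 of 10 called higher. In MDPs it was 9.34 to 9.83 in IkL/L cells and 7.96 to 8.17 in WT cells, with 4 of 10 called higher (0.537% of all genes). Mast cell and basophil markers had 2 of 6 called higher in CDPs (3.21% of all genes), and monocyte and macrophage markers 1 of 7. Conventional DC markers had 1 of 8 called higher, *Cd209a* (1.09, adjusted p = 0.0498), with list means of 6.87 to 7.41 in IkL/L CDPs and 6.53 to 7.07 in WT CDPs. Plasmacytoid DC markers had 1 of 6 called higher, *Spib* (1.75, adjusted p = 0.0223), while *Ly6d* had a difference of -1.68 (adjusted p = 0.0767). Their list means overlapped, at 7.16 to 7.39 in IkL/L CDPs and 6.56 to 7.80 in WT CDPs. Erythroid and megakaryocyte markers had 1 of 5 called higher, *Pf4* (2.52, adjusted p = 0.0338), with list means of 4.48 to 4.65 in IkL/L CDPs and 4.04 to 4.09 in WT CDPs. B cell markers and T and NK cell markers had 0 of 5 called each. Of 7 DC progenitor markers 0 were called. Their list means were 8.88 to 8.92 with GSI and 9.34 to 9.59 with vehicle in IkL/L CDPs, against 8.48 to 8.98 and 9.19 to 9.29 in WT CDPs. The members went both ways: with vehicle *Kit* was at 7.36 in IkL/L and 6.17 in WT CDPs, and *Cd34* at 9.41 and 10.16. These values do not tell the stage of the cells recovered. The part of these markers in the differences of the NF-kB genes was not tested. In bulk RNA more cells of a type and more RNA per cell cannot be told apart.

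The genes whose 8 group means followed those of *Relb* most closely were *Tmem123* (Pearson's r = 0.994), *Tm4sf19* (0.991), *Ccl22* (0.991), *Zmynd15* (0.990) and *Ccl5* (0.990). Among the NF-kB genes the order was *Traf1* (0.984), *Nfkb2* (0.979), *Rel* (0.948), *Nfkbie* (0.942), *Nfkbia* (0.916), *Rela* (0.915), *Tnfaip3* (0.913) and *Bcl3* (0.667). These values describe 8 points that share 1 large step between IkL/L CDPs and the rest. *Bcl3* stood apart from that step, with log2 signals of 8.71 and 8.90 with GSI and 8.10 and 8.42 with vehicle in IkL/L MDPs, against 7.93 and 8.74 with GSI and 7.52 and 8.35 with vehicle in WT MDPs.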

How the data were processed

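The expression table was deposited by the authors as log2 signals, made from Affymetrix Gene ST 1.0 arrays by RMA in Affymetrix Expression Console 1.4.1, per the submitters' processing notes. RMA subtracts background, aligns the arrays' distributions and combines a probe set's probes. The RNA was amplified before hybridization. Precision is limited by there being 2 arrays a group. Of 28188 probe sets, 21789 carried 1 gene symbol in the platform annotation, 1621 several and 4778 none. Genes were the 19938 symbols with a probe set of their own, the brightest on average where there were several, with no filter on signal.

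One limma 3.58.1 model (R 4.3.3, statmod 1.5.0) of the 8 group means was fitted to 16 arrays (8 residual and 2.35 prior degrees of freedom), with two-sided moderated tests for 16 contrasts. Groups came from the labels. P values measure the spread between these samples, which may be technical. The fit was tested on simulated data. Pathway genes were named by rule: from each list up to 4 called in vehicle-treated CDPs, otherwise the 2 with the lowest p. Genes outside it (*Rnf31*, *Tnfrsf9*, *Cd40*, *Tnfrsf11a*, *Cxcl16*, *Cd209a*, *Spib*, *Ly6d*, *Pf4*) were named after their values were seen. The genes and lists were chosen with earlier results of these data known.

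Alternatives were centring arrays on a common median, leaving out dim genes (11156 genes kept, with a group mean above 4.58), the replicate number as a block, averaging a gene's probe sets, a trended and robust variance prior, the compared groups alone, and leaving out each array. Promoters are RefSeq's (GRCm38.p6).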

Additional observations from a re-analysis of the deposited data

Results flagged for a closer look

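The genotype effect on *Traf1* differed between the stages by a test of the difference itself: it was larger in CDPs than in MDPs by a log2 of 2.54 averaged over GSI and vehicle (limma, adjusted p = 9.204e-04) and by 2.54 with vehicle alone (adjusted p = 0.0233). The averaged call was kept without any 1 of the 16 arrays, and the vehicle call was lost without 8 of the 16 arrays in turn (adjusted p up to 0.149) and with the arrays of the compared groups alone (0.189). That of *Relb* was larger in CDPs by 1.17 in the average (adjusted p = 0.0459), a call lost without 13 of the 16 arrays in turn (adjusted p up to 0.148) and with arrays centred on a common median (0.0618). All 4 CDP arrays of IkL/L mice lay above all 4 of WT mice for both genes. In MDPs the group means of *Traf1* were low, above those of 10.9 to 19.5% of all genes, so a genotype difference there may go unseen.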

How the results depend on the processing

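For single genes and counts of pathway genes, 344 values under the other settings and 932 with 1 array left out kept their direction and their side of the threshold (a count, within 1.5 times). Under the other settings 13 fell below the threshold, 9 passed it and 4 counts moved further, and with 1 array left out 53, 26 and 9 did. No value changed sign under the other settings. With 1 array left out, *Rela* in MDPs ran from -0.12 to 0.03 and *Rel* between WT CDPs and MDPs from -0.28 to 0.37, and both changed sign. The causes were not tested, except that the compared arrays alone leave fewer samples. The deposited values give no background level, so the number of arrays is the limit on precision that can be judged.

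Centring the arrays left 1 of the NF-kB genes called in the averaged interaction, and 0 of all genes for GSI in WT CDPs and 10 for the GSI average. Without dim genes, 4 of the NF-kB genes were called in GSI-treated CDPs, and 37 of all genes by genotype in GSI-treated MDPs and 7 for GSI in IkL/L CDPs. With the trended prior, all genes called by genotype in MDPs numbered 39 with GSI and 35 with vehicle, between WT stages 37, for GSI in IkL/L CDPs 12 and in WT CDPs 1, and between the GSI effects in CDPs 1. The compared arrays alone called, of all genes, 0 with GSI and 4 with vehicle by genotype in CDPs (0 of the NF-kB genes in either), 626 in their average (2 NF-kB genes), 0 with GSI and 7 with vehicle in MDPs, 3 in the vehicle interaction (0 NF-kB genes), 5 between WT stages, and 0 for GSI in IkL/L and in WT CDPs. In MDPs averaged they called 1 NF-kB gene, *Nfkbie*.

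Deviations of same-numbered arrays correlated between groups at -0.254 to 0.658 (28 pairs of groups, 17 of them over 0.1). Among the 4 CDP groups all 6 pairs lay at 0.348 to 0.658, and the IkL/L MDP GSI group lay at -0.254 to -0.02 with the 7 others. No source used here ties a number to a mouse or day, so the numbers were not taken to pair arrays. Between vehicle and GSI the deviations correlated at 0.658 in IkL/L CDPs and 0.585 in WT CDPs. If these arrays share mice, the p values of genotype differences averaged over the treatments are too small, and whether they do could not be tested. With the replicate block the calls over all genes numbered 365 in vehicle-treated CDPs, 36 in GSI-treated and 34 in vehicle-treated MDPs, 181 in the MDP average, 35 between WT stages and 570 between IkL/L stages, and for GSI 6 in IkL/L CDPs, 5 in WT CDPs and 176 in the average. Among the NF-kB genes the block added a call for *Tnfaip3* in GSI-treated CDPs (adjusted p = 0.0233) and *Nfkb2* between IkL/L stages (0.0355), and changed no other call reported for them.

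With 1 array left out in turn, all genes called by genotype in CDPs numbered 180 to 463 with GSI (NF-kB genes 1 to 5), 88 to 278 with vehicle (1 to 4) and 617 to 1097 in the average. In MDPs they numbered 3 to 221 with GSI (NF-kB genes 0 to 1), 0 to 26 with vehicle and 35 to 284 in the average (0 to 1). The interaction gave 0 to 29 with vehicle (0 to 2) and 67 to 146 in the average (1 to 4). Between stages they numbered 99 to 412 in IkL/L and 0 to 44 in WT cells (0 to 2). GSI gave 0 to 18 in IkL/L CDPs, 0 to 6 in WT CDPs, 0 to 59 in WT MDPs, 0 to 85 in the average (0 to 1) and 0 to 6 between the genotypes.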
